A study of Mus musculus with 31 samples.

Results

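Here 10 genes of endoplasmic reticulum (ER)-associated degradation and of the processing of the transcription factor NRF1 were followed through ribosome-protected fragments (RPFs, footprints of ribosomes on mRNA) and total RNA of mouse carcinoma cells. They were chosen by name for their roles, with earlier results of these data known, and each symbol was matched to its Entrez identifier. Nfe2l1, Ddi2, Ngly1, Vcp and Nploc4 act in the release and processing of NRF1, and Herpud1, Sel1l, Syvn1, Edem1 and Derl1 in the removal of misfolded proteins from the ER. These 10 genes were among 20704 listed in the RPF table and among 24593 in the total RNA table. All 10 passed the filter on low counts in both, where 9457 and 11708 genes were tested.

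The cells were keratinocytes of mouse cutaneous squamous cell carcinoma that carry HRasG12V. The sample labels give their second allele as TgfbrIIfl/fl, and the study's list of cell lines as the deleted TgfbrII D/D. In every group the endogenous Eif2s1 gene, which encodes eIF2α, had been ablated by CRISPR, and a Myc-tagged eIF2α transgene was expressed from a PGK promoter. The transgene was wild type at serine 51 (S51) or carried alanine there (S51A), which cannot be phosphorylated, so that S51A cells lack the integrated stress response (ISR). Cells received the vehicle DMSO or 100 nM bortezomib, an inhibitor of the proteasome, for 4.5 h by the sample labels and 4 h by the study's text. Each genotype was represented by single-cell-derived clones, and which of them went into the sequenced libraries was not stated, so that a difference between genotypes cannot be told apart from a difference between clones. There were 4 libraries per group and kind, except for 3 RPF libraries of S51 vehicle. Replicates were described as technical in one place and as biological in another, and p-values therefore measure only the spread between these samples.

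Misfolded proteins of the ER are recognised, drawn through a channel in its membrane, tagged with ubiquitin by the HRD1 ligase, pulled out by the ATPase p97 and degraded by the proteasome. NRF1, the product of Nfe2l1, uses the same route: it is inserted into the ER, extracted by p97 with its cofactor NPL4, stripped of its sugars by NGLY1 and cut by the protease DDI2. When proteasomes are inhibited the cut form escapes degradation, enters the nucleus and switches on proteasome genes and p97 itself. Most steps of NRF1 control therefore act on the protein, which neither footprints nor total RNA measure.

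The sequences shown first are promoter windows of the 4 genes with the largest bortezomib responses in S51 footprints, since stress elements read by ER stress and proteotoxic stress factors lie in windows of this kind. They are the 250 bases before the annotated start site, from RefSeq on GRCm38.p6, printed on the strand of the gene. Vcp is at chr4:43000508-43000757 (minus strand), Nploc4 at chr11:120437701-120437950 (minus strand), Herpud1 at chr8:94386179-94386428 (plus strand) and Syvn1 at chr19:6046326-6046575 (plus strand). Capitals mark matches to the motifs searched.
Vcp: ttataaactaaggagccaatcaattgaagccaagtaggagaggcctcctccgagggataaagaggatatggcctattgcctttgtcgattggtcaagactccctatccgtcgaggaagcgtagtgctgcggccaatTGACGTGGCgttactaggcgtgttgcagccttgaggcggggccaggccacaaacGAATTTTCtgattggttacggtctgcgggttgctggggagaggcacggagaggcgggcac
Nploc4: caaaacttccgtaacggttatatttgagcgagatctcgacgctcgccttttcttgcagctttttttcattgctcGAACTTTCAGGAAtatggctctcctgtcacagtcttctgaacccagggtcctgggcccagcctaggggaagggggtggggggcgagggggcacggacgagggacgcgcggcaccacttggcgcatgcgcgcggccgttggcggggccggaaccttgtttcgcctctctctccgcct
Herpud1: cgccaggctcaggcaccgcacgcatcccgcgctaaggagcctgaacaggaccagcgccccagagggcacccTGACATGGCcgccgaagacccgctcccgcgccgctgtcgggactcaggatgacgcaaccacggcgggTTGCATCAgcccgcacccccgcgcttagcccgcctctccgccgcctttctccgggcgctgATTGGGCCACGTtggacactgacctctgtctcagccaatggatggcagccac
Syvn1: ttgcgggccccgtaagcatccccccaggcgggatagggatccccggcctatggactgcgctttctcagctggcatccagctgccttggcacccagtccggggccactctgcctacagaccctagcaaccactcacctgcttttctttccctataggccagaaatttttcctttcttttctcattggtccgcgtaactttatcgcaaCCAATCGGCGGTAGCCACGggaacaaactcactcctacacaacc

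Motifs were searched on both strands of the 250 bases before each RefSeq start site, and bases after the start were not searched. Of the 10 genes 9 had an entry, with 5 start sites for Nfe2l1. Syvn1 held the ER stress element ERSE, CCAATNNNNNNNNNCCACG, 44 bases before its start, a motif present in 0.113% of 32851 promoters. Herpud1 held the related ERSE-II, ATTGGNCCACG, 52 bases before its start, which occurred in 0.0304% of promoters. The Herpud1 window also ends in all but the last letter of ERSE, and the base that follows was not searched. Vcp held the unfolded protein response element UPRE, TGACGTGG, 114 bases before its start, against 0.563% of promoters, and the same bases formed an antioxidant response element of the letters TGACNNNGC (10.2% of promoters), the kind of site that NRF1 binds. Among the start sites of Nfe2l1, 1 also had a UPRE match, on the minus strand.

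The commoner motifs were the XBP1 core ACGTG (16.6% of promoters), the CARE TGATGNAA read by ATF4 and its partners (3.45%) and the heat shock elements GAANNTTC (6.69%) and TTCNNGAA (7.17%). Herpud1 had a CARE match, an antioxidant element match and an XBP1 core match that overlapped its ERSE-II, Vcp a GAANNTTC match and an XBP1 core inside its UPRE, and Nploc4 overlapping matches to both heat shock letters. The windows of Ddi2, Ngly1, Sel1l and Edem1 held none of the 8 motifs. A match describes letters only and was not tied to binding.

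The shallowest RPF library held 1038826 counts on genes and the deepest 4902237, and total RNA libraries held 18758668 to 22994713. Levels are given in CPM, the share of a library's counts after scaling by trimmed mean of M values (TMM). A single library stood apart: S51 vehicle RPF replicate 2 differed from its 2 group mates by a chi-square per gene of 13.3 and 18.5, while the other RPF pairs within groups lay between 1.66 and 5.02. Footprint changes of the 10 genes against S51 vehicle are therefore given with and without it. Levels, medians, values relative to total RNA and the wider gene lists include it unless stated otherwise. All 10 keratinocyte markers, Krt5 and Krt14 among them, exceeded 1 CPM in every total RNA library, with a summed level of 14340.5 to 20872.7 CPM. Of 8 fibroblast markers 5 were at 0 in every library and their sum reached at most 6.93 CPM, and 7 leukocyte markers together reached at most 0.274 CPM. Eif2s1 total RNA, in which reads of the transgene and of the ablated gene cannot be told apart, lay between 279 and 314 CPM in all 16 libraries, and its footprints were 81 to 170.7 CPM in S51 vehicle and 212.1 to 259.2 in S51A vehicle. These counts do not show the base change and so check no label. In such bulk lysates fewer cells of a kind and less RNA per cell cannot be told apart.

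In S51 vehicle cells Vcp was the most abundant of the 10 genes and Ngly1 the least in footprints. Per kilobase of coding sequence, mean footprint levels were 292.7 CPM for Vcp, which encodes p97, 167.3 for Derl1, an ER membrane protein of the export channel, and 93.8 for Herpud1, a stress-induced scaffold of the HRD1 complex. Nploc4, which encodes NPL4, stood at 81.2, Nfe2l1 at 56.6, the protease gene Ddi2 at 47.9 and the ligase gene Syvn1, which encodes HRD1, at 44.6. Edem1, whose product trims mannose from misfolded glycoproteins, and Sel1l, which encodes the adaptor that stabilises HRD1, lay at 25.8 ± 8.88 and 25.6 ± 2.22 (SD, n = 3) and did not differ beyond their spread. The libraries of Herpud1 (66.8 to 122.3) overlapped those of Nploc4 (74.5 to 85.8), and those of Nfe2l1 (50.6 to 63.5), Ddi2 (41.6 to 58.7) and Syvn1 (33.6 to 60.1) overlapped each other, so that the order within each of these sets is not beyond their spread. Syvn1 also overlapped Edem1 (17.2 to 35). Ngly1, the gene of the deglycosylating enzyme, was lowest at 5.41. Total RNA per kilobase of transcript had the same top 6, from 109.8 CPM for Vcp to 22.2 for Ddi2, but its lowest gene was Syvn1 at 2.45, below Ngly1 at 6.86. Syvn1 shares 89 exonic bases with Mrpl49 on the other strand.

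Among the 10 genes, bortezomib raised footprints of p97 and its cofactor and of most of the ERAD members in S51 cells. Nfe2l1, Ddi2 and Ngly1 footprints did not pass the test. A change was tested with edgeR's quasi-likelihood test over all genes, adjusted by Benjamini-Hochberg. It passed at an adjusted p below 0.05, and was called where its fold also exceeded 1.5 in RPF or 2 in total RNA. In S51 RPF 4 of the 10 genes were called higher and none lower, where 7.38% of all genes were called higher and 11.2% lower. By adjusted p alone 6 of 10 rose, against 14.8% of all genes, and the median log2 change of the 10 genes was 0.47 where that of all genes was 0. Without the library that stood apart 4 were called and 7 rose, Edem1 being added. In S51A RPF 3 of 10 were called higher (4.19% of all genes) and none lower (6.67%), 6 of 10 rose by adjusted p (9.27%), and the median was 0.38 against -0.01.

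In total RNA 1 of 10 was called higher in S51 (1.96% of all genes), 8 rose by adjusted p (29.7%) and 1 fell (30.2%). In S51A total RNA 1 of 10 was called higher (1.63%), 6 rose (27.5%) and 1 fell (28.8%). The medians of the 10 genes were 0.24 in S51 and 0.33 in S51A, where all genes had -0.01 in both. The genotypes' comparisons used different libraries throughout. The summed keratinocyte markers in total RNA were also higher with bortezomib without overlap. The sums were 17066.4 to 19581.4 CPM against 14340.5 to 14943.4 in S51, and 19282.2 to 20872.7 against 18456.2 to 18697.1 in S51A. Taken gene by gene the 10 markers were mixed. By adjusted p 6 rose and 3 fell in S51 (median 0.15), and 4 rose and 2 fell in S51A (median 0.07). The part of these markers in the changes of the 10 followed genes was not tested.

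**Figure D1:**
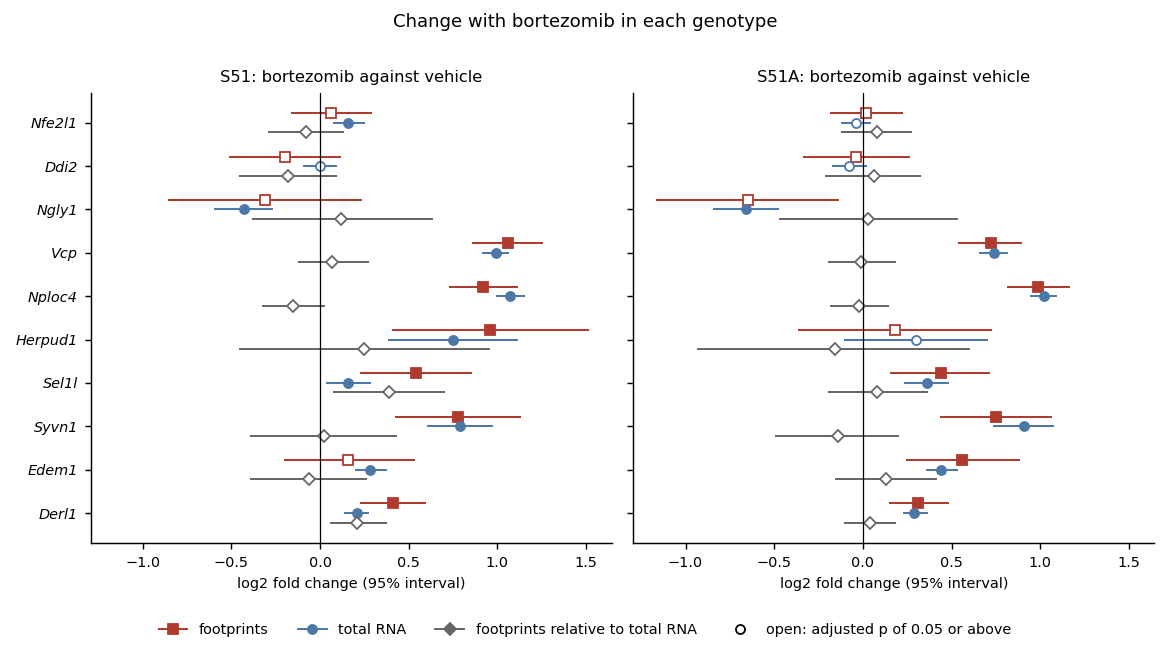
Log2 fold change with bortezomib (x axis, 95% interval) of each of the 10 genes in S51 (left) and S51A (right), for footprints (squares), total RNA (circles) and footprints relative to total RNA (diamonds), with open symbols at an adjusted p of 0.05 or above. Vcp and Nploc4 lie between 0.72 and 1.07 in footprints and total RNA of both genotypes, Herpud1 moves from 0.96 in S51 footprints to 0.18 in S51A, and every diamond is open.

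Nfe2l1 footprints were 124.1, 141.4 and 112.5 CPM in S51 vehicle and 144.6, 120.3, 127.2 and 131.4 in S51 bortezomib. The groups overlapped, and the log2 change was 0.06 ± 0.108 (SE, 95% interval -0.16 to 0.29, adjusted p = 0.698), or 0.15 (adjusted p = 0.272) without the library that stood apart. In S51A they were 125.4, 113.8, 99.4 and 101.6 with vehicle and 107.4, 106, 111.6 and 120.1 with bortezomib, again overlapping, with a log2 change of 0.02 (-0.18 to 0.22, adjusted p = 0.919).

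Its total RNA was 134, 119, 117.8 and 116.7 CPM in S51 vehicle and 133, 135.6, 139.8 and 137 in S51 bortezomib. Only the highest vehicle library reached into the treated range, and the RNA rose by 0.16 ± 0.0406 on the log2 scale (adjusted p = 0.00127). In S51A it was 132.5, 129.4, 125.3 and 127.3 with vehicle and 124.8, 127.3, 129.2 and 119.6 with bortezomib, a log2 change of -0.04 (adjusted p = 0.436). The rise in S51 depended on the scaling: with library totals alone, which moved the median of all genes in this comparison by -0.15, it was 0.01.

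Ddi2, the gene of the protease that activates NRF1, stayed within its spread. Its footprints were 52, 70.4 and 49.9 CPM in S51 vehicle and 49.4, 54.4, 43.8 and 52.5 in S51 bortezomib, with a log2 change of -0.20 (-0.51 to 0.11, adjusted p = 0.338). The highest value was that of the library that stood apart, and without it the change was -0.05. In S51A footprints the change was -0.04 (-0.33 to 0.26), and in total RNA 0.00 (-0.09 to 0.09, adjusted p = 0.963) in S51 and -0.08 (-0.17 to 0.02, adjusted p = 0.158) in S51A. Ddi2 shares 2069 exonic bases with Rsc1a1 on the same strand, so reads of the pair cannot be told apart there.

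Ngly1 was the member whose RNA fell. Its total RNA was 20.1, 20.7, 18.1 and 20.8 CPM in S51 vehicle and 15, 14, 15.4 and 14.7 in S51 bortezomib, with every treated library below every vehicle library and a log2 change of -0.43 ± 0.0764 (adjusted p = 3.02e-05). In S51A it was 13.6, 12, 13.8 and 14.6 with vehicle and 9.57, 7.21, 8.9 and 8.56 with bortezomib, again without overlap, and the change was -0.66 ± 0.0859 (adjusted p = 4.81e-07). Oxsm lies on the other strand over 186 exonic bases of Ngly1, and reads of the pair cannot be told apart there without strand.

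Ngly1 footprints were few. They were 11.7, 9.17 and 10.9 CPM against 7.27, 11.5, 8.68 and 7.83 in S51, and 7.46, 8.22, 11.2 and 9.31 against 8.36, 4.38, 5.71 and 3.86 in S51A. Both pairs of groups overlapped, and the changes of -0.31 (-0.85 to 0.23, adjusted p = 0.393) and -0.65 (-1.16 to -0.14, adjusted p = 0.0656) did not pass. The S51 change was -0.38 (adjusted p = 0.336) without the library that stood apart. Without S51A bortezomib replicate 1, the highest of its group, the S51A change was -0.97 (adjusted p = 0.0139).

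Vcp and Nploc4 rose in both genotypes and both kinds of library. Vcp footprints were 791.6, 571.2 and 763.2 CPM in S51 vehicle and 1372.5, 1470.3, 1591.7 and 1464.1 in S51 bortezomib. The lowest treated library lay well above the highest vehicle library, and the log2 change was 1.06 ± 0.0938 (0.86 to 1.25, adjusted p = 1.77e-08). The lowest vehicle value was that of the library that stood apart, without which the change was 0.93.

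In S51A, Vcp footprints were 801.4, 806.5, 827.7 and 856.6 with vehicle and 1400.7, 1329.2, 1274.4 and 1401.9 with bortezomib. The groups did not overlap and the log2 change was 0.72 ± 0.0847 (adjusted p = 2.15e-06). Vcp total RNA was 366.8, 359.8, 354.1 and 374.9 against 678.2, 711.5, 762.3 and 743.3 in S51, and 387.9, 385.1, 389.2 and 388.3 against 618.7, 661.6, 640.4 and 663.7 in S51A. Again no library overlapped. Vcp RNA rose by 0.99 ± 0.0351 in S51 (adjusted p = 2.71e-17), just under the fold of 2, and by 0.74 ± 0.035 in S51A (adjusted p = 8.37e-15).

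Nploc4 footprints were 152.4, 136 and 156.8 CPM in S51 vehicle and 273.2, 294.1, 268.1 and 292.4 in S51 bortezomib, and 144.5, 150.4, 129.2 and 129.9 against 261.1, 284.5, 281.4 and 274.5 in S51A. Treated and vehicle libraries were fully apart in both genotypes. The log2 changes were 0.92 ± 0.0901 in S51 (adjusted p = 8.48e-08), or 0.86 without the library that stood apart, and 0.99 ± 0.0814 in S51A (adjusted p = 1.01e-08).

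Its total RNA was 158.9, 155.1, 159.9 and 146.5 against 333.4, 333.8, 320.3 and 318.2 in S51, and 141.2, 146.1, 150.4 and 142.9 against 303.4, 284.8, 296.3 and 293.5 in S51A. Every treated library exceeded every vehicle library, and Nploc4 was the 1 member called in total RNA, with log2 changes of 1.07 ± 0.0347 (adjusted p = 5.22e-18) and 1.02 ± 0.0349 (adjusted p = 1.67e-17). Both fell under the fold of 2 when libraries were scaled by their totals alone.

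**Figure D2:**
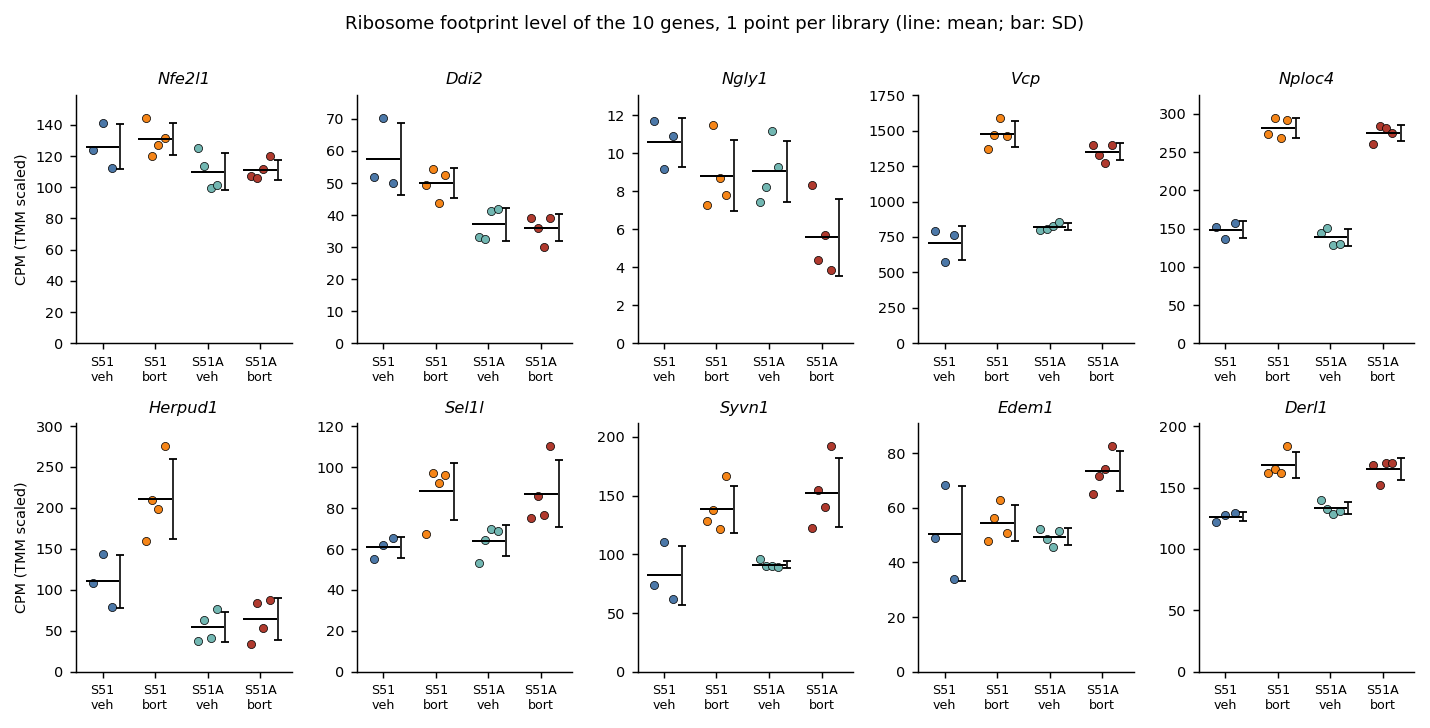
Footprint level (y axis, CPM after TMM scaling, from 0) of each of the 10 genes in the 4 groups, with 1 point per library, the mean as a line and the SD as a bar. Vcp, Nploc4, Sel1l, Syvn1 and Derl1 separate vehicle from bortezomib in both genotypes, Sel1l by a small gap. The S51A points of Herpud1 lie between 34.1 and 87.3 CPM in both treatments, where S51 bortezomib starts at 159.1.

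Herpud1 footprints responded in S51. They were 108.5, 143.8 and 78.5 CPM with vehicle and 159.1, 210, 199 and 275.6 with bortezomib. All treated libraries exceeded all vehicle libraries, the log2 change was 0.96 ± 0.263 (0.41 to 1.51, adjusted p = 0.00827), and it was 1.20 (adjusted p = 1.82e-05) without the vehicle library that stood apart. Over the 7 fits that left out 1 library the change was 0.73 at the lowest. The adjusted p reached 0.0435 at the highest, and all 7 were called. In S51A Herpud1 footprints were 37.8, 63.6, 41 and 76.1 with vehicle and 34.1, 83.7, 53.5 and 87.3 with bortezomib. The groups overlapped almost fully, replicates 2 and 4 were the higher ones in both treatments, and the log2 change was 0.18 (-0.36 to 0.72, adjusted p = 0.682).

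Total RNA of Herpud1 was 83, 82.8, 72 and 84.9 CPM against 126.1, 126, 125.5 and 165.5 in S51, and 26, 39.6, 34.1 and 57.5 against 33, 51.8, 36.4 and 72.5 in S51A. The S51 groups were apart and rose by 0.75 ± 0.173 (adjusted p = 0.00059). The S51A groups overlapped, with a log2 change of 0.30 (-0.10 to 0.70, adjusted p = 0.19) that passed without vehicle replicate 4 (0.55, adjusted p = 0.0135) or without bortezomib replicate 1 (0.45, adjusted p = 0.0454). It also passed when the model held a term for replicate number, as given at the end.

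The HRD1 ligase and its adaptor rose in both genotypes. Syvn1 footprints were 73.9, 110.5 and 61.9 CPM in S51 vehicle and 128.6, 137.5, 121.2 and 166.6 in S51 bortezomib. The groups did not overlap and the log2 change was 0.78 ± 0.17 (adjusted p = 0.00141), or 1.04 (adjusted p = 9.5e-08) without the library that stood apart, and 0.57 without vehicle replicate 3, below the fold of 1.5. In S51A they were 95.6, 89.8, 90.3 and 88.8 against 122.5, 155.1, 140.7 and 192.3, also apart, with 0.75 ± 0.149 (adjusted p = 0.000886).

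Syvn1 total RNA was 8.5, 7.47, 9.18 and 8.87 CPM against 15.5, 13.2, 14.6 and 15.8 in S51, and 11.8, 11, 9.98 and 11.5 against 18.6, 21.6, 19.9 and 22.8 in S51A. The groups were apart in both, and the RNA rose by 0.79 ± 0.0868 (adjusted p = 2.43e-08) and 0.91 ± 0.0808 (adjusted p = 9.94e-10), under the fold of 2.

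Sel1l footprints were 55.2, 61.8 and 65.6 CPM in S51 vehicle and 67.6, 97.4, 92.1 and 96.2 in S51 bortezomib. The lowest treated library was only slightly above the highest vehicle library, and the log2 change was 0.54 ± 0.15 (adjusted p = 0.00932), and also 0.54 without the library that stood apart. It reached the fold of 1.5 when treated replicate 1 was left out, at 0.64. In S51A they were 53.2, 64.3, 69.6 and 69 against 75.2, 86.1, 76.8 and 110.4, not overlapping, with 0.44 ± 0.132 (adjusted p = 0.021).

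The S51A Sel1l change no longer passed without vehicle replicate 1 (0.37, adjusted p = 0.072), vehicle replicate 2 (0.44, adjusted p = 0.0518) or bortezomib replicate 4 (0.30, adjusted p = 0.122). Sel1l total RNA changed less, by 0.16 ± 0.0574 in S51 (adjusted p = 0.0198) and by 0.36 ± 0.0567 in S51A (adjusted p = 7.2e-06). The S51 value was lost without vehicle replicate 3 (adjusted p = 0.058) or bortezomib replicate 4 (adjusted p = 0.0762), and was 0.01 with library totals alone.

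Edem1 passed in footprints of S51A alone, and Derl1 in those of both genotypes. Edem1 footprints were 49.1, 68.5 and 33.8 CPM in S51 vehicle and 48, 56.3, 62.7 and 50.9 in S51 bortezomib, with overlap and a log2 change of 0.16 (-0.20 to 0.53, adjusted p = 0.518). The highest vehicle value belonged to the library that stood apart, and without it the change was 0.44 (adjusted p = 0.0202). In S51A they were 52.2, 48.7, 45.5 and 51.4 against 65, 71.5, 74.2 and 82.6, fully apart, with 0.56 ± 0.15 (adjusted p = 0.00971).

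Edem1 total RNA was 131.1, 126.7, 127.4 and 127.4 CPM against 159.2, 156.3, 153.7 and 153.7 in S51, and 139, 140.9, 142.2 and 152.1 against 184.6, 194.2, 187.9 and 214.7 in S51A. No libraries overlapped, and it rose by 0.28 ± 0.0413 (adjusted p = 2.34e-06) and 0.44 ± 0.0408 (adjusted p = 1.62e-09). The lncRNA Gm35417 lies on the other strand over 4232 exonic bases of Edem1, and reads of the pair cannot be told apart without strand.

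Derl1 footprints were 122.3, 127.8 and 129.2 CPM against 162, 165.2, 161.6 and 183.9 in S51, and 140.3, 132.9, 128.8 and 130.7 against 168.8, 152.2, 169.8 and 170.3 in S51A. Treated libraries were above vehicle libraries in both, by 0.41 ± 0.0883 (adjusted p = 0.00122, and 0.42 without the library that stood apart) and 0.31 ± 0.0793 (adjusted p = 0.00671) on the log2 scale. Its total RNA rose by 0.21 ± 0.0307 (adjusted p = 2.51e-06) in S51 and 0.29 ± 0.0306 (adjusted p = 1.45e-08) in S51A, and the S51 value was 0.05 with library totals alone.

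**Figure D3:**
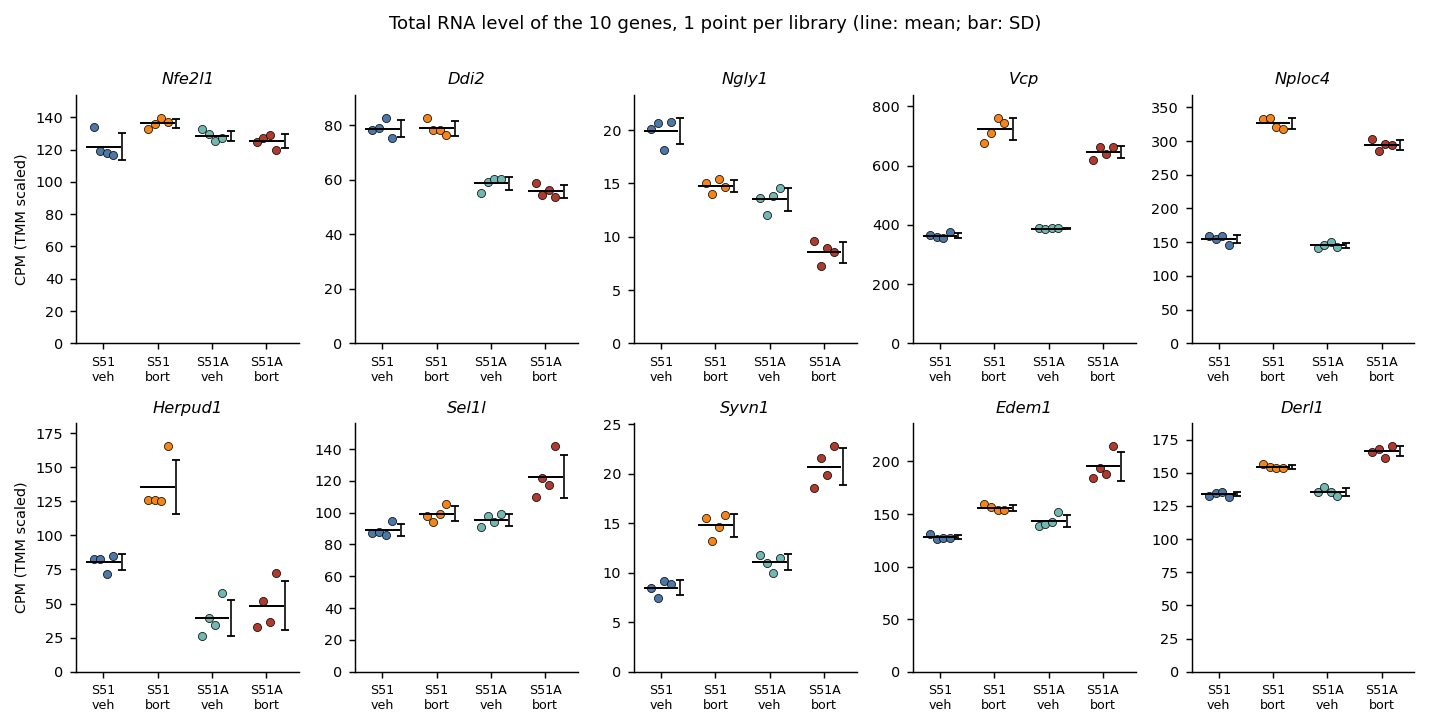
Total RNA level (y axis, CPM after TMM scaling, from 0) of each of the 10 genes in the 4 groups, with 1 point per library, the mean as a line and the SD as a bar. Nploc4 is 2.1-fold and 2.03-fold higher with bortezomib, Ngly1 is lowest in S51A bortezomib (7.21 to 9.57 CPM), and every S51A library of Herpud1 lies below all S51 libraries of the same treatment.

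Whether the response differed between the genotypes was tested as the difference between their bortezomib changes, S51A minus S51. Genotype and clone cannot be told apart in this difference either. In RPF none of the 10 genes was called or passed by edgeR, where 1.86% of all genes were called in either direction, while 2 had an unadjusted p under 0.05 by edgeR, and DESeq2 called 0 with 1 at an unadjusted p under 0.05. These 2 were Herpud1 at -0.78 (-1.54 to -0.01, adjusted p = 0.302) and Vcp at -0.34 (-0.60 to -0.08, adjusted p = 0.168). Without the S51 vehicle library that stood apart, Herpud1 was called, at -1.06 (adjusted p = 0.0192), and no other single library had that effect. Vcp was -0.21 (adjusted p = 0.198) without it.

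In total RNA none was called by edgeR or DESeq2 (0.478% of all genes by edgeR), 3 of 10 passed by adjusted p (21.6% of all genes), and 4 had an unadjusted p under 0.05 with each tool. The response was smaller in S51A for Vcp, by -0.25 ± 0.0493 (adjusted p = 0.000634), and for Nfe2l1, by -0.20 ± 0.0574 (adjusted p = 0.0133). Both remained past the threshold in all 16 fits that left out 1 library. Edem1 responded more in S51A, by 0.16 ± 0.058 (adjusted p = 0.0463), and passed in 4 of those 16 fits. Herpud1 differed by -0.45 (-0.98 to 0.09, adjusted p = 0.232) in total RNA, and by -0.71 (adjusted p = 0.0259) without S51A bortezomib replicate 4. With a term for replicate number in the model, the Herpud1 and Sel1l differences in total RNA passed, as given at the end.

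Between the genotypes, Herpud1 and Ddi2 were lower in S51A cells at both treatments. In vehicle RPF 2 of 10 genes were called lower in S51A (6.63% of all genes) and none higher. Without the S51 vehicle library that stood apart 1 was called lower, Herpud1. In bortezomib RPF 1 was called lower (7.66%), and 2 were lower by adjusted p (14.9%). In vehicle total RNA 1 was called lower (2.41%), 4 were lower (32.4%) and 3 higher (31.4%) by adjusted p. In bortezomib total RNA 1 was called lower (2.74%), 6 were lower (32.4%) and 4 higher (33.3%), so that all 10 passed. The median of the 10 genes was -0.05 and -0.08 in RPF, and 0.05 and -0.14 in total RNA, with vehicle and bortezomib respectively, where all genes lay between 0 and 0.01. The bortezomib responses above use the same libraries. Summed marker levels in total RNA also differed between the genotypes: with vehicle keratinocyte markers reached 14340.5 to 14943.4 CPM in S51 and 18456.2 to 18697.1 in S51A, fibroblast markers 2.69 to 3.58 and 4.6 to 6.93, and endothelial markers 3.43 to 5.03 and 1.23 to 2.06. With bortezomib the keratinocyte sums overlapped, at 17066.4 to 19581.4 in S51 and 19282.2 to 20872.7 in S51A, while the fibroblast sums were 2.76 to 3.85 and 4.18 to 6.2 and the endothelial sums 2.5 to 3.98 and 1.79 to 2.07. The fibroblast and endothelial sums rested mostly on 1 gene each. Of 8 fibroblast markers 7 were under 1 CPM in every library, all but Pdgfra (2.69 to 6.93 CPM). Of 5 endothelial markers 4 were, all but Kdr (0.958 to 4.63 CPM). The part of the marker sums in the differences below was not tested.

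Herpud1 footprints averaged 54.6 CPM in S51A vehicle against 110.3 in S51 vehicle, and 64.6 against 210.9 with bortezomib. No S51A library reached the lowest S51 library of its treatment. The log2 differences were -0.94 ± 0.266 (adjusted p = 0.0107) with vehicle, or -0.68 (adjusted p = 0.0141) without the library that stood apart, and -1.72 ± 0.254 (adjusted p = 2.36e-05) with bortezomib. In total RNA they were -1.03 ± 0.186 (adjusted p = 3.45e-05) and -1.48 ± 0.181 (adjusted p = 1.15e-07). The vehicle difference in total RNA was under the fold of 2 without S51A vehicle replicate 1 (-0.88) or replicate 3 (-0.97).

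Ddi2 footprints were 33.1, 32.4, 41.4 and 41.9 CPM in S51A vehicle, below the 49.9 to 70.4 of S51 vehicle, with a log2 difference of -0.61 ± 0.143 (adjusted p = 0.003). Without the library that stood apart it was -0.45 (adjusted p = 0.00917) and under the fold of 1.5, as it was without S51A vehicle replicate 1 (-0.56) or 2 (-0.53). With bortezomib it was -0.44 ± 0.148 (adjusted p = 0.0257), which was lost in turn without S51 bortezomib replicate 2 or 4 or S51A bortezomib replicate 2 or 3 (adjusted p of 0.0571 to 0.0788). In total RNA every S51A library, at 53.5 to 60.3 CPM, lay below every S51 library, at 75.1 to 82.7, and the differences were -0.42 ± 0.0433 (adjusted p = 7.2e-09) and -0.50 ± 0.0439 (adjusted p = 3.99e-10).

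**Figure D4:**
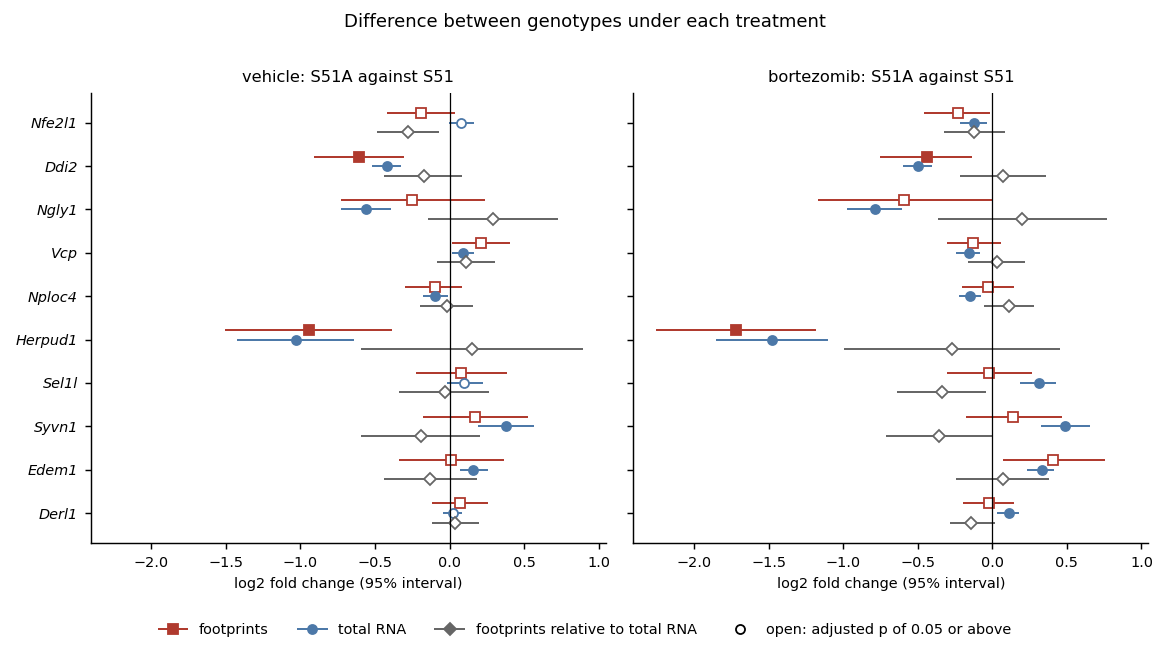
Log2 difference S51A minus S51 (x axis, 95% interval) of each of the 10 genes with vehicle (left) and bortezomib (right), for footprints (squares), total RNA (circles) and footprints relative to total RNA (diamonds), with open symbols at an adjusted p of 0.05 or above. Herpud1 lies farthest below 0, at -0.94 and -1.03 with vehicle and at -1.72 and -1.48 with bortezomib, and Syvn1 total RNA lies above 0 at 0.38 and 0.49.

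Ngly1 total RNA was also lower in S51A, by -0.56 ± 0.0766 with vehicle (adjusted p = 8.02e-07) and -0.79 ± 0.0857 with bortezomib (adjusted p = 1.68e-08), without overlap. Its footprints differed by -0.25 (-0.72 to 0.23, adjusted p = 0.451, and -0.32 without the library that stood apart) and -0.59 (-1.16 to -0.01, adjusted p = 0.114). Syvn1, Edem1 and Sel1l total RNA was higher in S51A with bortezomib, by 0.49 ± 0.0787 (adjusted p = 6.82e-06), 0.33 ± 0.0408 (adjusted p = 1.62e-07) and 0.31 ± 0.0567 (adjusted p = 4.57e-05). With vehicle, Syvn1 was higher by 0.38 (adjusted p = 0.000686) and Edem1 by 0.16 (adjusted p = 0.00131), while Sel1l at 0.10 did not pass (adjusted p = 0.118).

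Footprints of these 3 ERAD genes did not pass at either treatment. The nearest was Edem1 with bortezomib at 0.41 (0.08 to 0.75, adjusted p = 0.0525), and Syvn1 with vehicle was 0.17 (adjusted p = 0.461), or 0.43 (adjusted p = 0.0118) without the library that stood apart. The remaining total RNA differences were of 0.16 or less on the log2 scale: with bortezomib Vcp was lower by -0.16, Nploc4 by -0.15 and Nfe2l1 by -0.12, and Derl1 was higher by 0.11. With vehicle Vcp was higher by 0.09 (adjusted p = 0.0269) and Nploc4 lower by -0.10 (adjusted p = 0.0209).

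Translation efficiency (TE), the footprint change beyond that of total RNA, was tested as an interaction over all 31 libraries. By the study's text footprints and total RNA came from the same lysates, but this test did not pair them. None of the 10 genes was called or passed in any of the 5 comparisons by edgeR, and none did in the 3 that use S51 vehicle footprints when the library that stood apart was left out. All genes were called at 5.22% for bortezomib in S51, 0.955% for bortezomib in S51A, 0.0849% between genotypes with vehicle, 3.01% with bortezomib and 1.31% for the response difference. The 10 genes had 2, 0, 1, 2 and 0 unadjusted p under 0.05 by edgeR and 3, 0, 1, 2 and 0 by DESeq2, which called none and put Derl1 past adjusted p in S51 (0.21, adjusted p = 0.0277). Their median TE changes were 0.05, 0.03, -0.03, -0.05 and -0.09.

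Sel1l in S51 had the largest bortezomib TE value, at 0.39 ± 0.152 (0.08 to 0.70, adjusted p = 0.104). Its ratio of footprint to total RNA CPM, taken between libraries of the same group and number, was 0.633, 0.705 and 0.761 with vehicle and 0.689, 1.03, 0.927 and 0.912 with bortezomib, so that 1 treated value lay among the vehicle values. Without the RPF library of that value, S51 bortezomib replicate 1, the change was 0.48 (adjusted p = 0.0361), still under the fold of 1.5.

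Derl1 ratios were 0.921, 0.949 and 0.954 against 1.04, 1.07, 1.05 and 1.2 in S51, which did not overlap, with a TE change of 0.21 ± 0.0752 (0.06 to 0.37, adjusted p = 0.0669). Nfe2l1 had -0.28 ± 0.0985 (-0.48 to -0.08, adjusted p = 0.235) between genotypes with vehicle, and -0.38 (adjusted p = 0.0209) without S51 vehicle RPF replicate 3, a fit in which Edem1 also passed at -0.42 (adjusted p = 0.0443). With bortezomib, S51A minus S51 gave -0.34 for Sel1l (-0.63 to -0.05, adjusted p = 0.172) and -0.36 for Syvn1 (-0.71 to -0.01, adjusted p = 0.261).

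For Herpud1, whose footprints and total RNA differed most between genotypes, the TE differences were 0.15 (-0.59 to 0.89) with vehicle and -0.27 (-0.99 to 0.45) with bortezomib. The intervals of Vcp and Nploc4 in the bortezomib comparisons were narrower, with Vcp at 0.07 (-0.12 to 0.27) in S51 and -0.01 (-0.19 to 0.18) in S51A, and Nploc4 at -0.15 (-0.32 to 0.02) and -0.02 (-0.18 to 0.14).

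**Figure D5:**
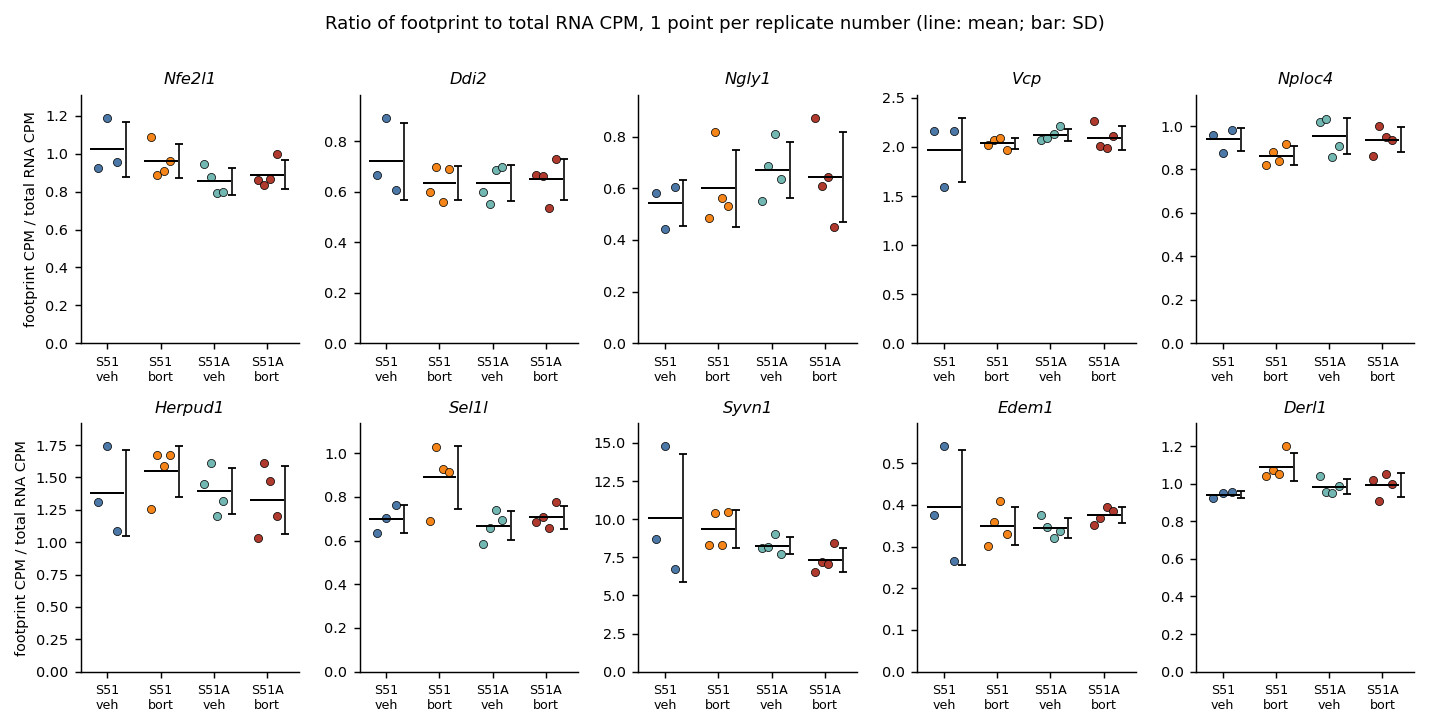
Ratio of footprint to total RNA CPM (y axis, from 0) of each of the 10 genes, with 1 point for each pair of libraries of the same group and number, the mean as a line and the SD as a bar. The Derl1 ratios of S51 rise from at most 0.954 with vehicle to at least 1.04 with bortezomib, and the S51 vehicle ratios of Syvn1 spread from 6.74 to 14.8.

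Around these genes, proteasome genes and ER folding genes rose with bortezomib, and the wider ERAD and p97 sets did so in few members. The S51 footprint values of these lists include the vehicle library that stood apart, and the lists were not summarised without it. The median over all genes was 0 in S51 RPF and -0.01 in S51A RPF. Of 38 proteasome genes, known targets of NRF1 and all tested, 24 were called higher and none lower in S51 RPF (median 0.66), and 18 higher and 1 lower in S51A RPF (median 0.56), where all genes were called higher at 7.38% and 4.19% and lower at 11.2% and 6.67%. In total RNA 34 rose and 3 fell by adjusted p in S51 (29.7% and 30.2% of all genes), and 34 rose and 2 fell in S51A (27.5% and 28.8%). Psmd1 (1.16), Psmc6 (1.03) and Psma1 (1.02) had the largest called footprint changes in S51, and Psma1 (1.01), Psmd11 (0.95) and Psmc2 (0.91) in S51A.

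Of 20 ER stress sensors and folding enzymes 11 were called higher in S51 RPF (median 0.61) and 9 in S51A (median 0.50), none lower, beside 7.38% and 4.19% of all genes called higher. They were led by Hspa5, the ER chaperone BiP, at 1.70 in S51 and 1.19 in S51A, with Xbp1 (1.35) and Hsp90b1 (1.08) next in S51 and Creld2 (0.92) and Manf (0.90) in S51A. Of 38 other tested ERAD factors 4 were called higher and 1 lower in S51 RPF (median 0.17), and 2 higher in S51A (median 0.13). These shares lie near those of all genes called higher, 7.38% in S51 and 4.19% in S51A. Among the few called, the co-chaperone Dnajb9 rose by 1.24 and 1.20, and the membrane selenoproteins Selenok (1.15) and Selenos (0.88) rose in S51, Selenos also in S51A (0.78). Dnajb9 and Selenok rest on few footprints, with S51 vehicle means of 3.85 and 9.85 CPM.

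Of 33 tested p97 cofactors 4 were called higher and 2 lower in S51 (median 0.07), and 5 higher and 1 lower in S51A (median 0.08), where all genes were called higher at 7.38% and 4.19% and lower at 11.2% and 6.67%. Ufd1, whose product pairs with NPL4 on p97, rose by 0.92 and 0.97, and Ubxn4, an ER-bound p97 adaptor, by 1.13 and 1.01, while Zfand1 fell by 1.19 and by 1.00. Footprints of Zfand1, and of Fbxw7 named below, were few, with S51 vehicle means of 9.63 and 8.25 CPM. Of 19 tested relatives and regulators of NRF1 3 were called higher in S51 (median 0.25, against 7.38% of all genes), namely Nfe2l2 (0.83), the gene of NRF2, and Skp1 (0.83) and Fbxw7 (0.75), parts of a ligase that turns NRF1 over. In S51A 1 was called higher and 1 lower (4.19% and 6.67% of all genes): Mafg, a binding partner, rose by 0.63 and Ogt fell by 0.82.

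Across the 16 total RNA libraries, which share their treatment and genotype contrasts, levels of Vcp and Nploc4 moved together (Pearson r = 0.98 of log2 CPM), as did Syvn1 and Edem1 (r = 0.96), and Ngly1 ran opposite to Edem1 (r = -0.91). Herpud1 was closest to Ddi2 among the members (r = 0.79). Of the other 11707 genes, those most like Herpud1 were Lratd2 (r = 0.969), Fam118b (r = 0.969) and Pik3ca (r = 0.966), with Lratd2 means of 19.4, 27.5, 9.74 and 9.9 CPM in S51 vehicle, S51 bortezomib, S51A vehicle and S51A bortezomib. Those most like Nfe2l1 were Ap4m1 (r = 0.89), Myo10 (r = 0.885) and Plec (r = 0.867). These correlations describe 4 groups more than 16 independent points.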

How the data were processed

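Libraries were made of RPFs and of total RNA, from both genotypes and both treatments. The authors deposited raw counts per gene, 1 table per kind of library. FastX was used for trimming, bowtie2 for alignment (mm10) and plastid for counting, with footprints taken from the coding sequence away from its ends. Several RPF libraries shared an rRNA depletion, and which ones is not given in the sources used here. Column names hold terms for rRNA removal, a repeat mask, marked duplicates and unique mapping at a quality of 50, and how each was applied is not given. Unique mapping lowers counts of genes with close copies. Removal of duplicates, if it was done, would lower those of abundant short footprints. Columns were assigned to groups by the series note on exchanged titles, which concerns S51 bortezomib and S51A vehicle. The numbers in the present titles would give these groups the other way round. Each deposited column was proportional to 1 column of the study's own named count table, which gives the assignment used here.

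The test was run by edgeR 4.0.16 under R 4.3.3 (TMM, filterByExpr with a minimum of 10 counts and a total of 15, glmQLFit and glmQLFTest with 1 coefficient per group) and Benjamini-Hochberg adjustment over all genes tested. TE was the interaction of library kind and group over 31 libraries. Intervals are 95% intervals of the fit. The method was tested on simulated data. DESeq2 1.42.0, other scalings, filters, fold thresholds, a replicate block, for TE also a block for the lysate, and leaving out each library were tried. All 10 members were named, and per pathway list at most the 3 called genes of largest change. For Nfe2l1 and Herpud1 the 3 genes of highest correlation were named. Members, lists and motifs were chosen with earlier results of these data known. No library was a repeat of another. Promoter windows were taken from RefSeq on GRCm38.p6.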

Additional observations from a re-analysis of the deposited data

Results flagged for a closer look

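In groups of 4 libraries, a highest or lowest value whose gap to its neighbour took nearly all of the group's range was picked out by Dixon's test at 95%. This met 7 of 100 groups, and chance picks about 1 in 20. The values were Derl1 footprints at 183.9 CPM, the highest in S51 bortezomib, and at 152.2 CPM, the lowest in S51A bortezomib. In total RNA they were Herpud1 at 165.5 CPM, the highest in S51 bortezomib, and at 72 CPM, the lowest in S51 vehicle, and the highest S51 vehicle values of Nfe2l1 (134 CPM), Sel1l (94.6 CPM) and Edem1 (131.1 CPM).

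In total RNA the bortezomib response differed between S51A and S51, by the test of the difference, for Nfe2l1 (-0.20 on the log2 scale), Vcp (-0.25) and Edem1 (0.16).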

How the results depend on the processing

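The number of the 10 genes called kept within 1.5 times its value in 112 of the 122 alternatives that kept all libraries, and in 176 of the 186 that left out 1. No member that passed turned its direction under any of them. A fold of 2 in RPF lowered the count from 4 to 1 for bortezomib in S51, from 3 to 0 in S51A and from 2 to 0 between genotypes with vehicle. A fold of 1.5 in total RNA raised it from 1 to 4 for bortezomib in S51, from 1 to 4 in S51A and from 1 to 2 between genotypes with bortezomib. In total RNA of S51, DESeq2 called 2, size factors of DESeq2's kind in edgeR called 2 and library totals alone called 0, and library totals called 0 in S51A too. Leaving out 1 library gave 3 to 5 for RPF bortezomib in S51A, 1 to 2 for RPF between genotypes with vehicle and 1 to 2 with bortezomib, 0 to 1 for the RPF response difference, 1 to 2 for total RNA bortezomib in S51 and 0 to 1 for total RNA between genotypes with vehicle.

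Library totals alone moved the all-gene median of the bortezomib change in total RNA by -0.15 in S51 and -0.12 in S51A, and of TE in S51 by 0.14. Under that scaling the total RNA difference between genotypes was -0.08 for Nploc4 with vehicle and -0.07 for Nfe2l1 with bortezomib, and neither passed. Vcp with vehicle, at 0.08, did not pass when no filter on low counts was used.

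Same-numbered libraries deviated together by over 0.1 in 3 of 21 RPF pairs and in 8 of 24 total RNA pairs, and the numbers were not taken as pairs. A library nevertheless correlated best with its own number in 42 of 48 total RNA comparisons and in 19 of 42 of RPF. Same-numbered total RNA pairs had correlations of 0.00213 to 0.191 (median 0.0922), where other pairs had a median of -0.0345. A replicate block, a term for replicate number in the model, left the counts of members called at 4, 3, 2, 1 and 0 in RPF. They stayed at 1, 1, 1, 1 and 0 in total RNA and at 0 in TE. With the block Herpud1 total RNA passed in S51A with bortezomib (0.30, adjusted p = 0.0177) and in the response difference (-0.44, adjusted p = 0.0182) by edgeR, and Sel1l in the response difference (0.20, adjusted p = 0.00801). Whether these pass therefore depends on taking the numbers as pairs, which was not settled here.

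At 1038826 counts in the shallowest RPF library, genes such as Ngly1 rest on few footprints, and their changes have wide intervals.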
